A study of Mus musculus with 60 samples.

Results

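Forebrain interneurons are local neurons, most of them inhibitory, and their classes are told apart by a small set of calcium-binding proteins, neuropeptides and other genes. The 10 genes described here are such class markers, chosen by name: the calcium-binding proteins Pvalb and Calb2, the neuropeptides Sst, Npy, Vip and Cck, the transcription factor Lhx6, the secreted matrix protein Reln, the serotonin-gated channel subunit Htr3a and the acetylcholine-synthesising enzyme Chat. All 10 were found among the 20423 genes of the deposited table. Their RNA was measured in mice homozygous for a deficiency of PON2 (paraoxonase 2, a membrane-bound antioxidant enzyme) and in wild-type littermates.

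In the cortex most parvalbumin and somatostatin interneurons come from the medial ganglionic eminence, where Lhx6 directs their development, while many VIP, calretinin (Calb2) and Htr3a interneurons come from the caudal ganglionic eminence. Reln marks superficial cortical interneurons, and Npy overlaps with both somatostatin and other classes. Chat marks the large cholinergic interneurons of the striatum. Several of these genes are not restricted to interneurons: Cck is made by many cortical excitatory neurons, Pvalb by Purkinje neurons, and Calb2 and Reln by cerebellar granule neurons.

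The animals were male and female PON2-deficient and wild-type mice, all on a C57BL/6J background and bred from heterozygous crosses, killed at 3 to 4 months of age once behavioural tests had ended. The labels name no tissue-restricted driver for the deficiency. Cerebellum, striatum and cerebral cortex were dissected, frozen and powdered, so that each of the 12 groups of region, sex and genotype held 5 libraries and the series 60. The labels do not say whether equal replicate numbers in different regions are 1 animal, and p-values measure only the spread between these libraries. Library totals were 26.1 to 28.1 M expected counts, and 1 CPM (a count scaled by TMM library size) stood for 25.2 to 29.9 counts.

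Pon2 itself separated the genotypes in every region. It averaged 3.45 CPM in PON2-deficient and 55.5 CPM in wild-type cortex, 3.86 and 51.2 CPM in PON2-deficient and wild-type striatum, and 0.761 and 42.9 CPM in PON2-deficient and wild-type cerebellum, with no overlap of libraries. One striatal library differed from the others of its group, the PON2-deficient male numbered 5. Its mean precision weight in the authors' deposited table was 0.0528 of the striatal median, against 0.38 to 1.66 for the other striatal libraries. Against the other 4 PON2-deficient male striatal libraries, its genes with exons of under 1000 bases had a median log2 difference of 0.69, and genes of over 4000 bases one of -0.21. Among the markers it was higher by 1.13 on the log2 scale for Pvalb, 1.08 for Sst, 1.13 for Npy, 1.08 for Cck and 1.25 for Calb2, and its Chat difference was -1.40. The differences were 0.49 for Vip, 0.41 for Htr3a and -0.23 for Lhx6. Reln, with 23738 exon bases, was also higher, by 0.46. Values without this library are therefore given beside each striatum minus cortex difference and beside many other striatal results.

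The promoters of the 4 neuropeptide genes are shown because peptide genes include classical targets of cyclic AMP signalling. Each run is 300 bases, from 250 bases before to 50 bases after the gene's start, from RefSeq on GRCm38.p6, written 5′ to 3′ on the strand of the gene. Capitals mark exact matches, on either strand, to TGACGTCA (the cyclic AMP response element), to its core TGACG, to TATAAA (the TATA box) or to GGGCGG (a GC box). The core lies within the full element. Promoter entries matched 8 of the 10 genes; Calb2 and Htr3a had none.

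Sst, chr16:23890795-23891094, minus strand: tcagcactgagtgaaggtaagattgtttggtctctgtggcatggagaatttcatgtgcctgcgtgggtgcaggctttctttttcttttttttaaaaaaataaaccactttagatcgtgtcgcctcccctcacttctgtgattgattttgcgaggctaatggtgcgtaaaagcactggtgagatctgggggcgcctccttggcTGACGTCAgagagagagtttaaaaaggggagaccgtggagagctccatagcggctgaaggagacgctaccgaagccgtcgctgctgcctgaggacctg
Npy, chr6:49822460-49822759, plus strand: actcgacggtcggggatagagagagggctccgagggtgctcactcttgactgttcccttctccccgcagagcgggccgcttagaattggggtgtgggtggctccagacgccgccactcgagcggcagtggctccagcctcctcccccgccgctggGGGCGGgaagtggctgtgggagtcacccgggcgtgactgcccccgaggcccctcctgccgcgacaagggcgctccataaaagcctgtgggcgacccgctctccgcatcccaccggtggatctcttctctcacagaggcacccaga
Vip, chr10:5638968-5639267, plus strand: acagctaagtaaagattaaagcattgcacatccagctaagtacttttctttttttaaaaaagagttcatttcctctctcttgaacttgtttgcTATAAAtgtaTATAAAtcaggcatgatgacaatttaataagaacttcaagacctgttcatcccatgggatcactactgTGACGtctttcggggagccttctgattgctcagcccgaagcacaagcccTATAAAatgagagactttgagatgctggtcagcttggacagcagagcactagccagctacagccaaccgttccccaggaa
Cck, chr9:121495645-121495944, minus strand: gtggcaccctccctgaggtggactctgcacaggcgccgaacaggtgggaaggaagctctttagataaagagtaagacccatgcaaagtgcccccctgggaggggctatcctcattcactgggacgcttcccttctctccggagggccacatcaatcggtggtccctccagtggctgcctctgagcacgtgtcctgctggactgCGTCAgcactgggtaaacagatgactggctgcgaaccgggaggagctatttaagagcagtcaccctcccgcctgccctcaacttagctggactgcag

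The Sst window held a full cyclic AMP response element at bases 203 to 210, which 507 of 27025 promoters of the same length (1.88%) also held. The Vip window held a core match at bases 172 to 176, and the Cck window held one read from the opposite strand (CGTCA) at bases 204 to 208. The core was present in 21.0% of all promoters. Vip had TATAAA beginning at bases 94, 104 and 221, a motif found in 14.2% of promoters, and Npy had GGGCGG at bases 156 to 161, found in 35.9%. These matches describe letters only and are no evidence of binding.

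Each region had its own profile: Pvalb, Calb2 and Reln were highest in cerebellum, Chat and Lhx6 in striatum, and Vip, Cck, Npy and Htr3a in cortex. In the fit of all 60 libraries (edgeR's quasi-likelihood test, Benjamini-Hochberg adjusted p under 0.05 taken as a call), 10 of 10 markers were called between cerebellum and cortex, 3 higher and 7 lower, where 79.6% of all genes were called, 40.1% higher and 39.5% lower. Between cerebellum and striatum all 10 were called, again 3 higher and 7 lower (79.8% of all genes, 39.7% higher and 40.2% lower). Between striatum and cortex 8 were called, 3 higher and 5 lower (57% of all genes, 28.8% higher and 28.2% lower). The median log2 difference of the 10 markers was -3.62, -2.32 and -0.13 in these 3 comparisons, against 0.003, -0.003 and 0.005 over all genes. In bulk tissue, fewer cells of a class and less RNA per cell cannot be told apart.

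**Figure D1:**
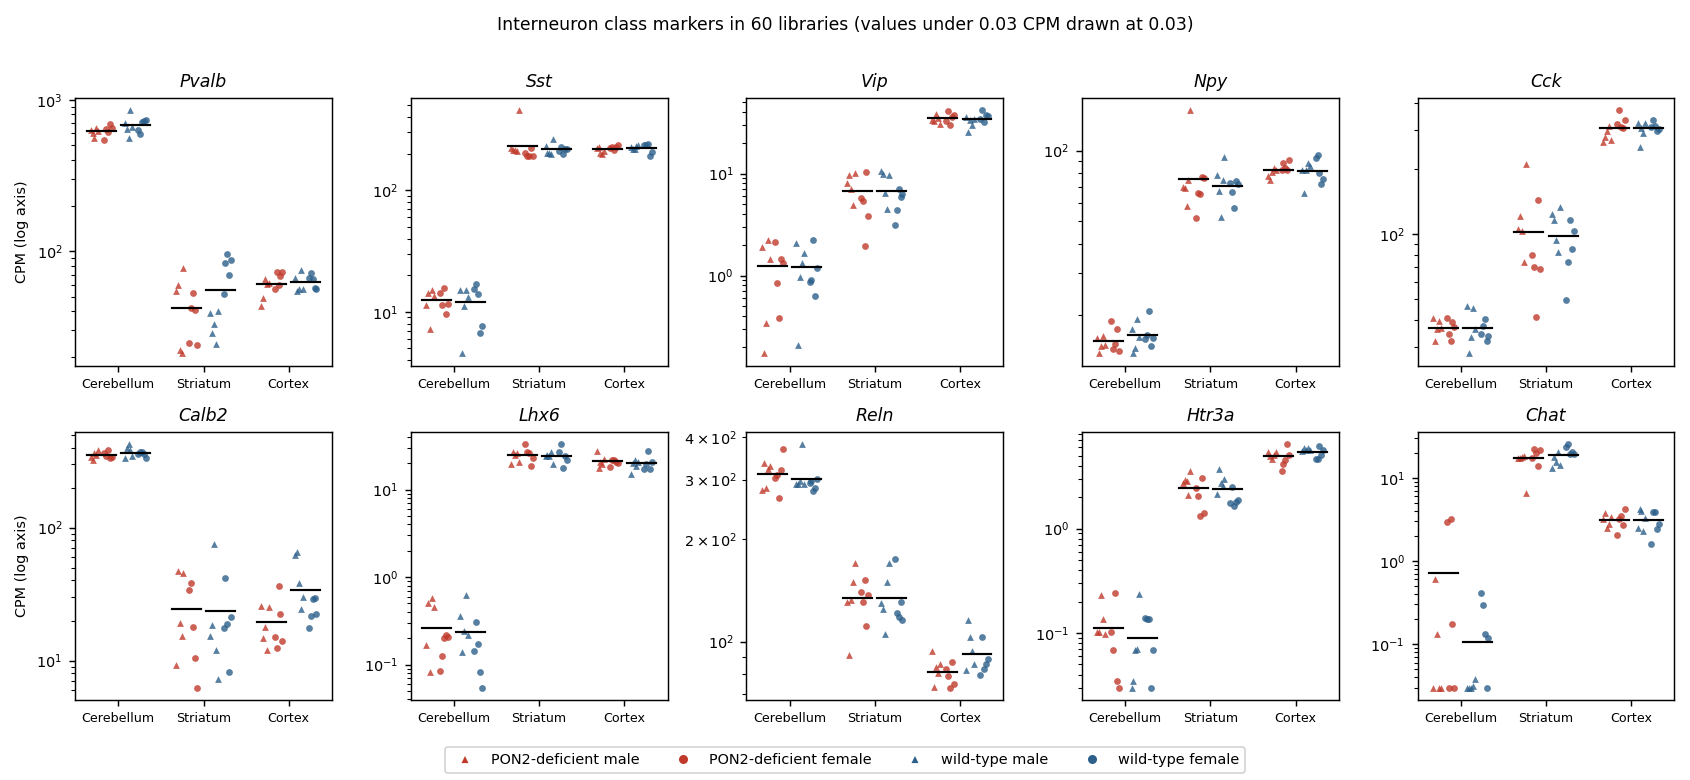
CPM on a log axis of the 10 markers in each of the 60 libraries, by region, with PON2-deficient libraries (red) left of wild-type ones (blue), triangles for males, circles for females and a line at each genotype mean of 10 libraries; values under 0.03 are drawn at 0.03. Pvalb, Calb2 and Reln are highest in cerebellum, Chat in striatum, and Vip, Cck and Htr3a in cortex, while the red and blue points overlap in every panel.

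Both calcium-binding proteins were far higher in cerebellum than in the forebrain. Pvalb had 543.5 to 854.7 CPM in cerebellum (median 643.5), 21.1 to 95.4 in striatum (median 41.6) and 43.6 to 74.8 in cortex (median 61.1). Every cerebellar library lay above every forebrain library, by a log2 difference of 3.40 (SE 0.11, adjusted p = 4.12e-34) against cortex, which is 10.5-fold. Striatal Pvalb was lower than cortical (log2 difference -0.42, SE 0.103, adjusted p = 0.000357), yet its range enclosed the whole cortical range. Without striatal PON2-deficient male 5 that difference was -0.48. Calb2, which encodes calretinin, had 325 to 423.8 CPM in cerebellum (median 357.8), 6.26 to 75.1 in striatum (median 18.3) and 11.97 to 65.6 in cortex (median 23.3). It was 14.2-fold higher in cerebellum than in cortex (log2 difference 3.83, SE 0.224, adjusted p = 2.23e-22). Its striatal and cortical levels were not separated (log2 difference -0.08, 95% interval -0.49 to 0.33, adjusted p = 0.763; -0.14 without male 5).

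Somatostatin and neuropeptide Y, which inhibitory neurons release beside GABA, were forebrain transcripts at similar levels in striatum and cortex. Sst had 4.55 to 16.9 CPM in cerebellum, 191.5 to 455.6 in striatum and 192.2 to 238.5 in cortex. Its level differed between striatum and cortex by 0.02 on the log2 scale, with a 95% interval of -0.17 to 0.20 (adjusted p = 0.907). Without striatal PON2-deficient male 5 the difference was -0.05. Npy had 13.7 to 20.8 CPM in cerebellum, 51.5 to 148.7 in striatum and 65.9 to 95.4 in cortex. Its striatal level was lower than the cortical one by a narrow margin (log2 difference -0.18, SE 0.0716, adjusted p = 0.0306). That call was lost in 7 of 60 fits that each left out 1 library (adjusted p 0.0507 to 0.0648): cortex wild-type female 2, striatum PON2-deficient males 1, 2 and 3 and female 1, and striatum wild-type male 3 and female 3. Without that male 5 library the Npy difference was -0.25 (adjusted p = 8.1e-05). In cerebellum both peptides were lower than in cortex, with log2 differences of -4.18 for Sst (SE 0.109, adjusted p = 1.48e-38) and -2.37 for Npy (SE 0.0768, adjusted p = 3.63e-34).

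Vip and Cck, peptides shared by a caudally derived basket cell class, were highest in cortex and lowest in cerebellum. Vip had 0.172 to 2.24 CPM in cerebellum, 1.97 to 10.5 in striatum and 25.8 to 41.8 in cortex, so that striatal and cortical libraries did not overlap. Cck had 28.02 to 46.3 CPM in cerebellum, 41.2 to 210 in striatum and 251.4 to 372.3 in cortex, again with no overlap between striatum and cortex. The striatum minus cortex differences were -2.38 for Vip (SE 0.159, adjusted p = 3.45e-19) and -1.64 for Cck (SE 0.0992, adjusted p = 5.08e-21) on the log2 scale. Without striatal PON2-deficient male 5 they were -2.40 for Vip and -1.71 for Cck. Both peptides had 1 striatal library that lay within the cerebellar range.

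Lhx6, the medial ganglionic eminence factor, was close to absent in cerebellum and slightly higher in striatum than in cortex. It had 0.0546 to 0.625 CPM in cerebellum, which is 1.58 to 18.2 counts, 17.9 to 33.0 CPM in striatum and 14.9 to 27.8 in cortex. The striatum minus cortex difference was 0.26 (log2, SE 0.0834, adjusted p = 0.00698), although only 2 striatal libraries exceeded the highest cortical one; without male 5 it was 0.27. Reln, the secreted protein that guides neuronal layering, followed another order. It had 265.8 to 381.7 CPM in cerebellum, 91.3 to 174.8 in striatum and 73.2 to 115.8 in cortex. Reln was higher in striatum than in cortex (log2 difference 0.63, SE 0.0588, adjusted p = 7.04e-14, and 0.61 without male 5) and 3.53-fold higher in cerebellum than in cortex (log2 difference 1.82, SE 0.0601, adjusted p = 9.69e-34). Exons of Reln share 246 bases with an antisense gene (Gm10475), and those of Lhx6 share 104 bases with Gm27953. Reads there cannot be assigned, since the sources used here do not say whether counting used strand.

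Htr3a, the ionotropic serotonin receptor subunit of caudally derived interneurons, had 0 to 0.240 CPM in cerebellum, 1.33 to 3.70 in striatum and 3.59 to 6.45 in cortex. Its striatum minus cortex difference was -1.13 (log2, SE 0.118, adjusted p = 3.67e-12, and -1.15 without male 5), and 19 of 20 cortical libraries exceeded the highest striatal one. In cerebellum 13 of 20 libraries had under 3 counts of Htr3a and 3 had none. Chat showed the reverse order in the forebrain. It had 0 to 3.20 CPM in cerebellum, 6.67 to 25.5 in striatum and 1.63 to 4.26 in cortex. Chat was 5.76-fold higher in striatum than in cortex (log2 difference 2.53, SE 0.21, adjusted p = 1.31e-15, and 2.58 without male 5), with no overlap. The gene for its vesicular transporter, Slc18a3, lies within Chat but shares 0 exon bases with it.

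Between genes, levels can be set side by side only per length, here as mean CPM per kilobase of merged exons. On that scale Sst led the markers in both forebrain regions, with 311 in striatum and 306 in cortex, followed in cortex by Cck (235) and Npy (146) and in striatum by Npy (130) and Cck (76.4). Pvalb reached 46.7 in striatum and 59.4 in cortex. In cerebellum Pvalb (626) and Calb2 (206) were followed by Npy and Cck, both at 28.2, Sst (16.9) and Reln (12.9). Reln, with 23738 exon bases, thus ranked lower per length than its CPM would place it. Chat was the lowest of the 10 in cortex (0.662) and Htr3a the lowest in striatum (1.16) and cerebellum (0.0482).

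The study's main question was whether the loss of PON2 changes brain transcripts by region. None of the 10 markers was called between PON2-deficient and wild-type libraries in any region by edgeR's quasi-likelihood test, and DESeq2 called 0 as well. Over all genes the test called 0.0316% for cortex, 0.0105% for striatum and 0.0321% for cerebellum. At an unadjusted p under 0.05 there were 2 markers in cortex (Calb2 and Reln), 0 in striatum and 1 in cerebellum (Pvalb), where all genes gave 11.4%, 4.94% and 11.1%. The tested markers had a median log2 difference of -0.02 in cortex (-0.001 over all genes), 0.025 in striatum (0.01) and 0.01 in cerebellum (0.001). Lhx6, Htr3a and Chat were too low for the cerebellar test, leaving 7 markers there.

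**Figure D2:**
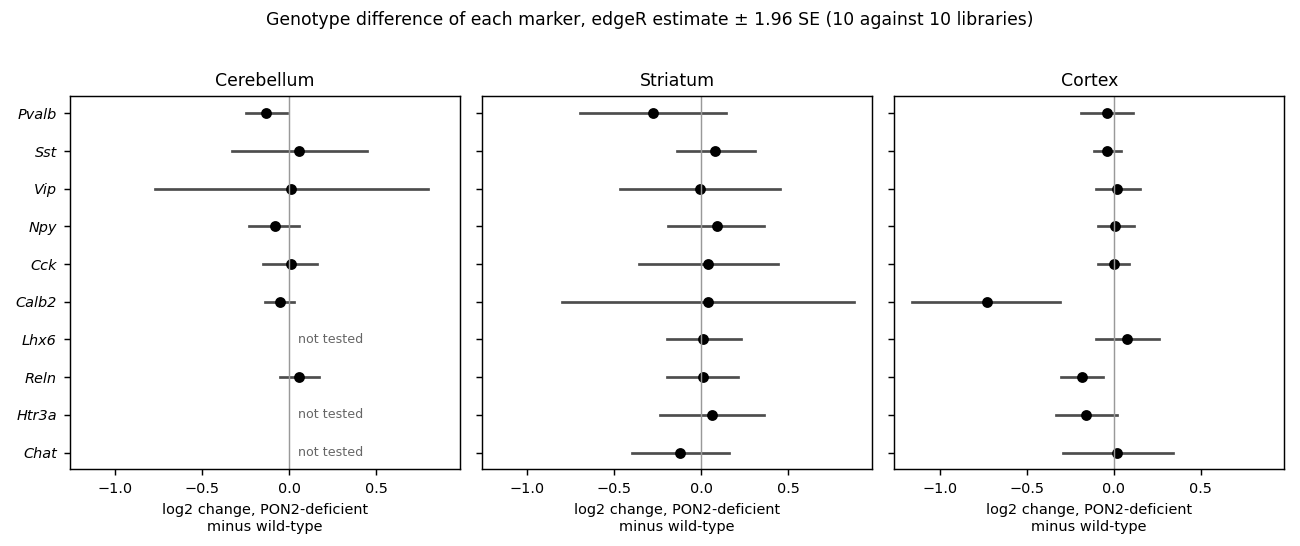
Log2 difference of each marker, PON2-deficient minus wild-type, in cerebellum, striatum and cortex, as the edgeR estimate with its 95% interval (10 against 10 libraries). The interval of Calb2 in cortex, from -1.16 to -0.31, lies farthest from 0; Calb2 in striatum has the widest interval, from -0.80 to 0.88.

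Calb2 in cortex had the largest genotype estimate among the markers that were tested. The PON2-deficient males had 25.6, 14.7, 17.9, 11.97 and 25.2 CPM and the wild-type males 62.7, 65.6, 38.1, 24.2 and 29.9. PON2-deficient females had 15.0, 12.5, 36.4, 22.2 and 14.0 CPM and wild-type females 17.6, 21.5, 29.1, 29.3 and 22.4. Wild-type males 1 and 2 were the highest, and the genotypes overlapped in each sex. Calb2 averaged 19.6 ± 7.77 CPM in PON2-deficient and 34.0 ± 16.9 CPM in wild-type cortex (SD, n = 10 each), a fitted ratio of 0.601. The log2 difference was -0.73 (SE 0.215, unadjusted p = 0.00259 and adjusted p = 0.167 by edgeR), and 295th by p among 18972 genes. Leaving out each library in turn moved it between -0.90 and -0.64, with adjusted p from 0.0971 to 0.286. The male effect was -1.16 and the female effect -0.35, and their difference was not called (log2 -0.95, SE 0.428, adjusted p = 0.493).

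Several marker lists of tissue next to the cortex also had mostly lower estimates, and their part in the Calb2 difference was not tested. The summed level of 8 olfactory bulb markers ran from 248.1 to 317.2 CPM in PON2-deficient and from 253 to 401.4 CPM in wild-type cortex (medians 292.7 and 288.6), and 7 of 8 had lower estimates in PON2-deficient cortex (median log2 difference -0.58). Of the hypothalamus and basal forebrain markers, 7 of 8 tested had lower estimates (median -0.78). Their sums ran from 14.1 to 177.1 CPM in PON2-deficient and from 15.8 to 141.4 CPM in wild-type cortex (medians 22.4 and 60.3). All 8 choroid plexus markers (median -0.97) and all 6 ependymal markers (median -0.48) also had lower estimates, and 9 of 11 thalamic ones did (median -0.09). Choroid plexus sums ran from 14.8 to 509.6 CPM in PON2-deficient and from 17.2 to 471.1 CPM in wild-type cortex (medians 52.9 and 80.5). An unadjusted edgeR p under 0.05 was held by 1 of 8 choroid plexus and 4 of 6 ependymal markers, beside 11.4% of all cortical genes. Hippocampal markers had lower estimates for 6 of 8 (median -0.41), with sums of 491.7 to 569.2 CPM in PON2-deficient and 488.4 to 577 CPM in wild-type cortex; Calb2 is itself in the hippocampal and thalamic lists. Striatal projection neuron markers were split, 4 higher and 4 lower (median -0.001). Within groups, the Calb2 level of a cortical library correlated with the mean of the hypothalamus and basal forebrain markers by Pearson's r = 0.67 (permutation p = 0.00823, adjusted p = 0.129) and Spearman's rho = 0.60 (permutation p = 0.014, adjusted p = 0.201, 20 libraries). Without the 2 libraries farthest from the median of the markers, r was 0.47.

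Reln, the other marker under an unadjusted p of 0.05 in cortex, differed by less. PON2-deficient males had 93.7, 73.4, 84.1, 80.9 and 85.6 CPM and wild-type males 82.7, 115.8, 103, 93.5 and 85.9. The PON2-deficient females had 82.8, 79.0, 73.2, 87.0 and 74.8 CPM and wild-type females 79.8, 103.3, 83, 85.9 and 88.5. The 3 libraries above 100 CPM were wild-type, and the remaining wild-type libraries lay among the PON2-deficient ones. Reln averaged 81.5 ± 6.60 CPM in PON2-deficient and 92.1 ± 11.6 CPM in wild-type cortex (SD, n = 10 each), a log2 difference of -0.18 (SE 0.0612, edgeR adjusted p = 0.262).

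Htr3a in cortex of males was 1 of 10 markers there whose genotypes did not overlap, beside 2.79% of all genes tested. In the other combinations of region and sex 0 markers had genotypes that did not overlap, beside 1.44% of genes in cortex of females, 0.854% in striatum of males, 1.8% in striatum of females, 2.1% in cerebellum of males and 1.06% in cerebellum of females. PON2-deficient males had 5.47, 4.95, 4.61, 5.08 and 5.39 CPM and wild-type males 5.55, 5.94, 5.62, 5.90 and 5.66. In females the genotypes overlapped, with 3.59 to 6.45 CPM in PON2-deficient and 4.64 to 6.17 CPM in wild-type cortex. Over both sexes the log2 difference was -0.16 (SE 0.0872, edgeR adjusted p = 0.519), and the male effect of -0.17 hardly differed from the female effect of -0.16. The other 7 markers had cortical log2 differences between -0.04 and 0.08, with edgeR adjusted p of 0.779 or above. For Sst the 95% interval was -0.11 to 0.04, and for Cck it was -0.09 to 0.09.

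In striatum the genotype estimates lay close to 0 and the spread between libraries was wide. Pvalb had the largest estimate, -0.28 (log2, SE 0.215, edgeR adjusted p = 0.995), and the others lay between -0.12 (Chat) and 0.09 (Npy). Without PON2-deficient male 5 the estimates were -0.40 for Pvalb, -0.06 for Sst, -0.07 for Npy, -0.10 for Cck, -0.09 for Calb2, -0.04 for Reln and -0.02 for Chat. Those for Sst, Npy, Cck, Calb2 and Reln thus took the other sign, and none was called. Mean Sst in PON2-deficient striatum was 231.8 CPM over 10 libraries and 206.9 CPM without it. Mean Npy there was 75.7 CPM with it and 67.6 CPM without it. The 9 remaining PON2-deficient libraries had a mean Chat of 18.5 ± 2.55 CPM.

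Striatal Pvalb, read by sex, gave the largest difference between male and female effects among the markers. PON2-deficient males had 54.6, 60.2, 22.4, 21.1 and 77.4 CPM and wild-type males 39.0, 28.8, 32.9, 24.3 and 40.5. The PON2-deficient females had 24.7, 42.0, 52.9, 41.1 and 23.9 CPM and wild-type females 51.8, 83.7, 95.4, 69.1 and 87.2. Wild-type females were the highest group, at 77.4 ± 17.2 CPM (SD, n = 5), and of the PON2-deficient females only number 3 exceeded the lowest of them. PON2-deficient males spanned the range of wild-type males on both sides. The effect was 0.35 in males and -1.10 in females on the log2 scale, and the male minus female difference was 1.57 (SE 0.432, 95% interval 0.72 to 2.41, unadjusted p = 0.00163, adjusted p = 0.88 by edgeR), 32nd by p among 18962 genes.

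No gene was called in this male minus female comparison in any region (0% of all genes by edgeR, while 9.56% of cortical, 4.31% of striatal and 4.73% of cerebellar genes had an unadjusted p under 0.05). DESeq2 called 0 of the markers. One alternative called Pvalb: in 1 fit over all 60 libraries the difference was 1.58 (adjusted p = 0.0248), while limma on the deposited values gave 1.21 (adjusted p = 0.525). Leaving out PON2-deficient male 5 gave 1.33, the lowest of the values without 1 library. Thalamic markers were read beside striatal Pvalb, and their part in its level was not tested. Their summed level ran from 146.6 to 282.9 CPM in PON2-deficient and from 142 to 565.4 CPM in wild-type striatum, and 9 of 11 had lower estimates in PON2-deficient striatum (median log2 difference -0.36, and -0.35 with 10 of 11 lower without male 5). The within-group correlation of Pvalb with these markers had Pearson's r = 0.46 (permutation p = 0.0082, adjusted p = 0.129) and Spearman's rho = 0.60 (permutation p = 0.00279, adjusted p = 0.107) over 20 libraries, neither of which passed the adjustment. Pearson's r was 0.56 without the 2 libraries farthest from the median of the markers.

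**Figure D3:**
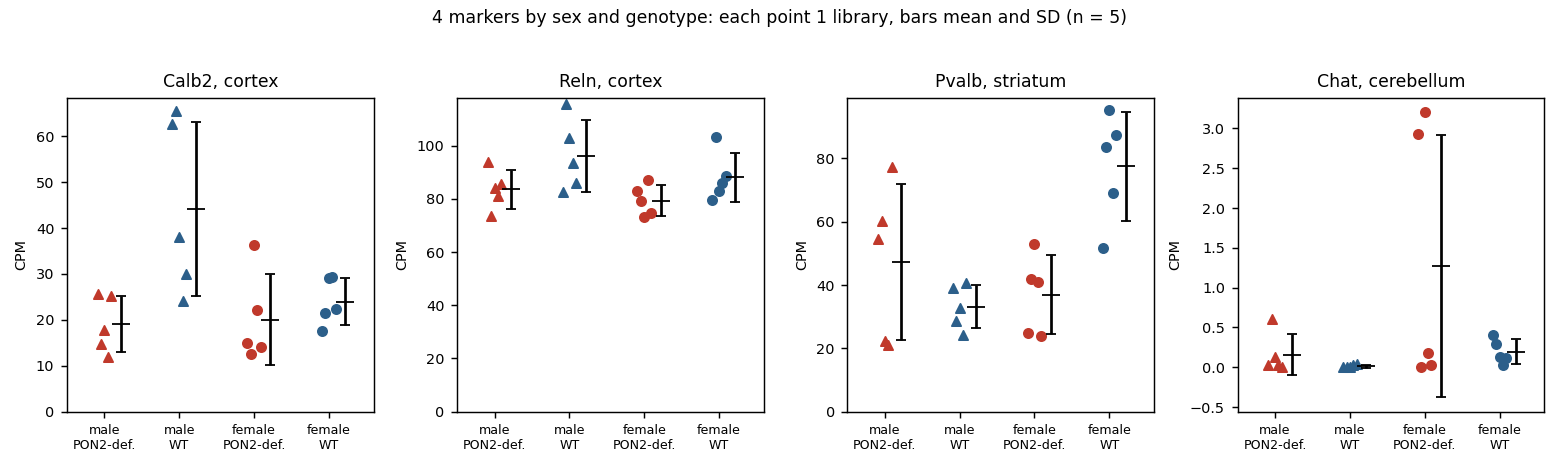
CPM of Calb2 and Reln in cortex, Pvalb in striatum and Chat in cerebellum by sex and genotype, each point 1 library and each bar the group mean with its SD (n = 5), with PON2-deficient groups left of wild-type ones. Wild-type males hold the 2 highest Calb2 values (62.7 and 65.6), wild-type females the highest striatal Pvalb values, and 2 PON2-deficient female libraries the highest cerebellar Chat values (2.92 and 3.20).

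In cerebellum Pvalb had the only marker estimate under an unadjusted p of 0.05. PON2-deficient libraries ran from 543.5 to 692.1 CPM with a median of 627.5, and wild-type libraries from 562.8 to 854.7 CPM with a median of 680.9. The ranges overlapped, and the means were 621.3 ± 44.6 CPM in PON2-deficient and 682.4 ± 83.7 CPM in wild-type cerebellum (SD, n = 10 each). The log2 difference was -0.13 (SE 0.0618, edgeR adjusted p = 0.429). Calb2, the granule neuron transcript, differed by -0.05 (95% interval -0.14 to 0.03), and Reln by 0.06 (95% interval -0.05 to 0.17). Of 8 Purkinje neuron markers, 7 had lower estimates in PON2-deficient cerebellum (median log2 difference -0.05, 0 called), and their part in the Pvalb estimate was not tested.

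Cerebellar Chat was set by 2 libraries. PON2-deficient males had 0.0288, 0.607, 0.132, 0.0294 and 0 CPM and wild-type males 0, 0, 0, 0.0317 and 0.0382. The PON2-deficient females had 2.92, 0, 3.20, 0.176 and 0.03 CPM and wild-type females 0.411, 0.295, 0.132, 0.0292 and 0.118. PON2-deficient females 1 and 3 thus stood above all others, with 85.0 and 92.1 counts, and 5 of 20 libraries had no count. In the fit of all libraries the Chat effect of PON2 deficiency in cerebellum minus that in striatum was 3.06 (log2, SE 0.867, edgeR adjusted p = 0.546), and minus that in cortex it was 2.91 (SE 0.884, edgeR adjusted p = 0.755). These estimates rest on counts near 0 and were 1.13 and 1.06 by limma on the deposited values. No marker was called in any comparison of effects between regions by edgeR or DESeq2; edgeR called 0.0147% of all genes for cerebellum minus cortex, 0.00981% for cerebellum minus striatum and 0% for striatum minus cortex. Chat was the only marker under an unadjusted p of 0.05 there, in both cerebellar comparisons.

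Males and females differed in several striatal markers by estimates that were not called. By edgeR 0 markers were called in any region (0.0896% of cortical, 0.105% of striatal and 0.118% of cerebellar genes were) and by DESeq2 also 0. Markers under an unadjusted p of 0.05 numbered 1 of 10 for cortex, 4 of 10 for striatum and 0 of 7 for cerebellum, while 10.5% of cortical, 7.82% of striatal and 7.24% of cerebellar genes were under it. In striatum male minus female differences were 0.50 for Htr3a (log2, SE 0.153, adjusted p = 0.42), 0.58 for Vip (SE 0.235, adjusted p = 0.564), 0.48 for Cck (SE 0.206, adjusted p = 0.586) and -0.36 for Chat (SE 0.144, adjusted p = 0.564). Without PON2-deficient male 5 they were 0.45, 0.52, 0.34 and -0.26 in the same order. In cortex the marker was Cck, at -0.13 (SE 0.0458, adjusted p = 0.341). Over all markers, 7 of 10 striatal estimates lay on the male side, Sst (0.22) and Npy (0.21) among them. Pvalb (-0.44, SE 0.215, edgeR adjusted p = 0.654) lay on the female side. Without male 5 the estimates were 0.07 for Sst, 0.06 for Npy and -0.56 for Pvalb, and that of Reln changed sign to -0.03.

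The partners of the interneuron classes were read from 9 lists, and 0 of their tested genes were called by genotype in any region. Higher and lower give the sign of the estimate, PON2-deficient minus wild-type. GABA synthesis and transport genes had lower estimates in PON2-deficient tissue for 4 of 4 in cortex (median log2 difference -0.06) and for 3 of 4 in striatum and in cerebellum; without striatal male 5, 1 of 4 had a lower estimate in striatum. Of the medial ganglionic eminence factors, 5 were higher and 6 lower in cortex, 7 higher and 4 lower in striatum (Dlx1 0.30, edgeR adjusted p = 0.995), and 4 of 4 tested higher in cerebellum. Caudal ganglionic eminence factors were lower for 5 of 6 in cortex and in striatum. In cerebellum, 3 of 5 were higher (Prox1 0.23, adjusted p = 0.162).

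Parvalbumin class partners included genes for potassium and sodium channels and for a synaptic protein, beside others such as Erbb4, Tac1, Cox6a2 and Pthlh. They were higher for 6 of 8 in cortex, lower for 6 of 8 in striatum (median -0.12, and -0.07 without male 5) and higher for 6 of 7 in cerebellum. Their smallest p belonged to Syt2, a synaptic vesicle calcium sensor, in cortex (log2 difference 0.17, edgeR adjusted p = 0.386). Somatostatin and NPY partners were lower for 5 of 8 in cortex and 5 of 7 in striatum (3 of 7 without male 5), and higher for 6 of 7 in cerebellum, where Crhbp, which binds corticotropin-releasing hormone, had 1.11 (edgeR adjusted p = 0.325). VIP and other caudal partners were lower for 4 of 7 in cortex, 6 of 7 in striatum (Ndnf -0.62, edgeR adjusted p = 0.733) and 2 of 6 in cerebellum. Cholinergic partners were lower for 6 of 8 in cortex and in striatum (Gbx2 -0.55, Ache -0.11), and 3 of 4 tested were higher in cerebellum (median 0.49). Gbx2 and Zic4 of this list are also in the thalamic list, of which 9 of 11 had lower estimates in PON2-deficient striatum. Examined after their values were seen, the choline transporter Slc5a7 and the vesicular transporter Slc18a3 were highest in the same 3 cerebellar libraries as Chat, PON2-deficient male 2 and females 1 and 3. On the log2 CPM scale Slc5a7 had 1.99 in that male and 1.15 and 2.65 in those females, against at most 0.94 in wild-type libraries. Slc18a3 had 0.14 in the male and 0.25 and 1.63 in the females, against at most -0.37 in wild-type libraries.

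The receptors that read these signals were also not called. Among 16 peptide and reelin receptors in cortex, 6 were higher and 10 lower, with 5 of 16 under an unadjusted p of 0.05, beside 11.4% of all cortical genes. Vipr1, a receptor for VIP, had a log2 difference of 0.36 there (edgeR adjusted p = 0.114). In cerebellum Sstr3, a somatostatin receptor of neuronal cilia, had -0.32 (edgeR adjusted p = 0.0641), and 6 of 14 tested were higher and 8 lower. In striatum 8 were higher and 8 lower (10 higher and 6 lower without male 5), and with all libraries none had an unadjusted p under 0.05. Acetylcholine receptors were 4 higher and 3 lower in cortex, where Chrm4 had 0.22 (edgeR adjusted p = 0.364), 3 higher and 5 lower in striatum, and 4 higher and 3 lower in cerebellum. Those under an unadjusted edgeR p of 0.05 numbered 1 of 7 in cortex, 2 of 8 in striatum and 0 of 7 in cerebellum. All genes gave 11.4%, 4.94% and 11.1% in the same order. The smallest striatal p among these receptors belonged to Chrna4.

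A minority of marker pairs varied together between libraries of a region once the means of the 4 sex and genotype groups had been subtracted. Pearson's r over 20 libraries had a median of 0.21 in cerebellum and 0.03 in both striatum and cortex. Of 135 pairs, 45 in each region, 11 had a Benjamini-Hochberg adjusted permutation p under 0.05 by Pearson's r. Of these, 10 were positive and 1 negative. These pairs share libraries, and p-values came from 100000 permutations within the groups, which cannot give less than 1e-05. Vip and Cck varied together in every region. In striatum their r was 0.92 (permutation p = 1e-05, adjusted p = 0.00045) and rho 0.94 (permutation p = 1e-05), in cerebellum r was 0.80 (permutation p = 1e-05, adjusted p = 0.00045) and rho 0.83 (permutation p = 1e-05), and in cortex r was 0.79 (permutation p = 0.00044, adjusted p = 0.0119) and rho 0.74 (permutation p = 0.00107). Without the 2 libraries farthest from the median of Vip, r was 0.91 in striatum, 0.69 in cerebellum and 0.69 in cortex.

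Npy and Cck also moved together in cerebellum, with r = 0.84 (permutation p = 1e-05, adjusted p = 0.00045), rho = 0.85 (permutation p = 0.0001) and r = 0.86 without the 2 libraries farthest for Npy. Vip and Npy did so there too, with r = 0.69 (permutation p = 0.00027, adjusted p = 0.00911), rho = 0.75 (permutation p = 5e-05) and r = 0.62 without the 2 farthest for Vip. Sst and Lhx6 had r = 0.71 in cerebellum (permutation p = 0.00064, adjusted p = 0.0123) and rho = 0.69 (permutation p = 0.00146), with r = 0.71 without the 2 farthest for Sst. That relation rests on few counts, since cerebellar Lhx6 had 1.58 to 18.2 counts and under 3 in 4 of 20 libraries. In cortex Npy and Cck had r = 0.67 (permutation p = 0.00272, adjusted p = 0.0428) and rho = 0.59 (permutation p = 0.00563, adjusted p = 0.051), with r = 0.47 without the 2 farthest for Npy. Pvalb and Npy had r = 0.62 there (permutation p = 0.00292, adjusted p = 0.0428) and rho = 0.70 (permutation p = 0.00059), with r = 0.67 without the 2 farthest for Pvalb.

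In striatum the peptide pair Sst and Npy had r = 0.84 (permutation p = 0.00349, adjusted p = 0.0428) and rho = 0.73 (permutation p = 0.00406). This relation leaned on PON2-deficient male 5: r was 0.59 without it and 0.57 without the 2 libraries farthest for Sst. Sst and Cck had r = 0.60 (permutation p = 0.00343, adjusted p = 0.0428) and rho = 0.57 (permutation p = 0.00696, adjusted p = 0.0587), with r = 0.47 without male 5. Cck and Chat ran in opposite directions, with r = -0.74 (permutation p = 0.00059, adjusted p = 0.0123) and rho = -0.72 (permutation p = 0.0006), and r = -0.70 without male 5. Other striatal pairs with Chat passed the adjusted permutation p by rank only. These were Sst (rho = -0.78, adjusted p = 0.0342), Vip (rho = -0.64, adjusted p = 0.0259) and Lhx6 (rho = 0.66, adjusted p = 0.0133). For Sst and Chat r was -0.89, and -0.57 without male 5.

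**Figure D4:**
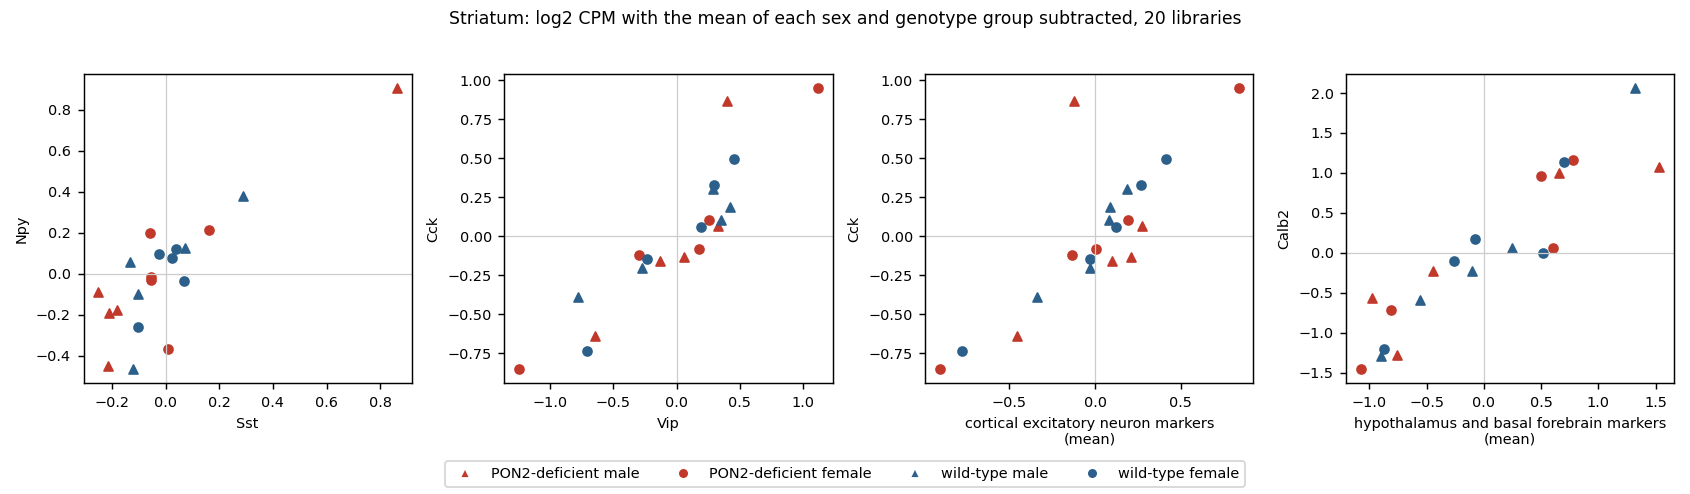
Striatal log2 CPM of Npy against Sst, Cck against Vip, Cck against the mean of cortical excitatory neuron markers, and Calb2 against the mean of hypothalamus and basal forebrain markers, with the mean of each sex and genotype group subtracted; each point is 1 of 20 libraries. Cck follows Vip (r = 0.92) and Calb2 follows the hypothalamus and basal forebrain markers (r = 0.92) across all 4 groups, while in the Sst and Npy panel PON2-deficient male 5 lies alone at the top right.

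Set against marker lists of neighbouring tissue and other cells, 7 of 330 relations had an adjusted permutation p under 0.05, and 4 of them were striatal. Calb2 in striatum followed hypothalamus and basal forebrain markers, with r = 0.92 (permutation p = 1e-05, adjusted p = 0.0033) and rho = 0.94 (permutation p = 1e-05), and r = 0.91 without the 2 libraries farthest from the median of the list. The summed level of that list ran from 69.7 to 180.7 CPM in PON2-deficient and from 85.6 to 201 CPM in wild-type striatum. PON2-deficient male 5 held the 180.7 CPM, and the other PON2-deficient libraries reached at most 120.1 CPM. Vip and Cck in striatum followed cortical excitatory neuron markers. For Vip r was 0.91 (permutation p = 3e-05, adjusted p = 0.00495), rho 0.77 (permutation p = 0.00035) and r without the 2 farthest 0.87. For Cck r was 0.82 (permutation p = 0.00069, adjusted p = 0.0396), rho 0.73 (permutation p = 0.0013) and r 0.98 without PON2-deficient male 5. Those markers summed to between 185.1 and 820.1 CPM in PON2-deficient striatum and between 224.2 and 893.3 CPM in wild-type striatum, and their part in the Vip and Cck levels was not tested.

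Reln in striatum followed markers of the striatal projection neurons, with r = 0.71 (permutation p = 0.00072, adjusted p = 0.0396) and rho = 0.71 (permutation p = 0.00115), and r = 0.70 without the 2 farthest. In cortex Npy followed the excitatory neuron markers, with r = 0.70 (permutation p = 0.00016, adjusted p = 0.0176) and rho = 0.66 (permutation p = 0.00065), and r = 0.54 without the 2 farthest. In cerebellum Chat followed hypothalamus and basal forebrain markers, with r = 0.72 (permutation p = 0.00105, adjusted p = 0.0495) and rho = 0.66 (permutation p = 0.0063), and r = 0.59 without the 2 farthest. Both sides were near the floor there. Chat had under 3 counts in 11 of 20 libraries and none in 5. The list summed to 2.23 to 7.03 CPM in PON2-deficient and 2.82 to 6.93 CPM in wild-type cerebellum. Cerebellar Vip ran against the cortical excitatory markers, with r = -0.73 (permutation p = 0.00058, adjusted p = 0.0396) and rho = -0.71 (permutation p = 0.00177), and r = -0.68 without the 2 farthest. Vip was low there, at 5.01 to 64.5 counts. The list summed to 465.3 to 559.7 CPM in PON2-deficient and 510.2 to 573.7 CPM in wild-type cerebellum. Which cells gave that level was not tested, so the list is not read as cortical neurons there.

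Among genes that averaged 1 CPM or more, the 3 most like each marker in the region where it was highest were found by the same centred measure over 20 libraries, as a description without a test. Pvalb in cerebellum was most like Nme2 (r = 0.94), Rbm8a (0.91) and Fgf11 (0.90). Sst had nearly equal levels in striatum and cortex and was highest in striatum only with PON2-deficient male 5. It was most like Ap2s1 (0.99), Clta (0.98) and Rtf1 (0.98) in striatum, or 0.92, 0.89 and 0.91 without male 5, and like Ilkap (0.83), Alyref (0.76) and Sstr2 (0.74) in cortex. Chat in striatum was most like Anks6 (0.93), Abat (0.92) and Spryd3 (0.91), or 0.73, 0.72 and 0.68 without male 5. Lhx6 in striatum was most like Tacr3 (0.85), Bbs12 (0.81) and Smim17 (0.78), or 0.86, 0.80 and 0.77 without male 5.

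In cortex the peptide Vip was most like Brd3os (0.83), Emx1 (0.83) and Uso1 (0.81), and Npy like Hs3st2 (0.86), Prrt3 (0.84) and Plcl2 (0.84). Cck was most like Tpi1 (0.91), Eef1a2 (0.89) and Camk2n1 (0.86), and Htr3a like Fbxo21 (0.79), Myh8 (0.78) and Cfap46 (0.77). Calb2 was most like Emp2 (0.79), Unc5b (0.78) and Gfap (0.77) in cerebellum and like Tmem255a (0.83), Kcnj5 (0.81) and Unc119 (0.80) in cortex. Reln was most like Ice1 (0.89), Sptbn1 (0.86) and Sart1 (0.86) in cerebellum and like Gas1 (0.76) and Adamts5 (0.73) in cortex.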

How the data were processed

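RNA from frozen, powdered tissue was read as 150 nt pairs, per the labels. The authors deposited expected counts per gene, log2 values and precision weights. The submitters' processing notes list Salmon, limma and edgeR. Their versions, the build and the strand setting were not given in the sources used here. Log2 values deposited by the authors equal log2 CPM as limma's voom makes it, with a count offset of 0.5 (largest deviation 5.33e-14). The deposited weights are a voom precision score per gene and library.

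From these, expected counts were rounded and tested with edgeR 4.0.16 in R 4.3.3 (quasi-likelihood F tests, 2-sided, TMM scaling, filterByExpr, Benjamini-Hochberg adjustment over all tested genes). Each region was fitted over its 4 groups of sex and genotype, with 18972 cortical, 18962 striatal and 18710 cerebellar genes. Region comparisons used 1 fit of 12 groups and 20387 genes. CPM values use TMM library sizes. 95% intervals come from the standard errors. Symbols, exon lengths and positions came from GENCODE M21 (GRCm38), which matched 20403 gene IDs (99.9%). Correlations used log2 CPM with a prior count of 2, with group means subtracted, and left the markers themselves out of the lists (Python 3.11.15, scipy 1.17.1). Figures used matplotlib 3.10.9 and tables pandas 2.3.3.

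Alternatives were DESeq2 1.42.0, limma 3.58.1 on the deposited log2 values and weights, DESeq2 size factors, no low-count filter, 1 fit of all libraries, a replicate block and each library left out. The 10 markers are named with values in every region, with Pon2 as the check of genotype. Genes most like a marker are the 3 highest by Pearson's r in its highest region and wherever its unadjusted genotype p was under 0.05, and the listed genes named are those with the smallest p. Not every gene so chosen is reported here. The markers, lists and tests were chosen with earlier results of these data known. Libraries of 1 group were no duplicates: over 120 pairs the lowest mean chi-square per gene was 6.85, where 1 is sampling noise. The pipeline was tested on simulated data.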

Additional observations from a re-analysis of the deposited data

Results flagged for a closer look

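In groups of 5 libraries, 10 of 120 combinations of marker, region, sex and genotype held a library whose gap to its nearest neighbour exceeded 0.71 of the group's range, which chance gives in about 1 in 20 groups. Of these, 3 were striatal PON2-deficient male 5, the library of low precision weight. It had 456 CPM of Sst (the others 210.6 to 220.8), 149 CPM of Npy (58.1 to 74.7) and 6.67 CPM of Chat (17.2 to 18.4).

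The remaining 7 lay in different libraries. Among PON2-deficient libraries, cerebellar male 2 had 0.607 CPM of Chat, with the other males at 0 to 0.132. Striatal wild-type male 3 had 75.1 CPM of Calb2 (the others 7.25 to 18.7). Striatal wild-type female 1 had 175 CPM of Reln (115.7 to 130.7), and striatal wild-type female 2 had 2.52 CPM of Htr3a (1.64 to 1.90). Cortical wild-type male 2 had 65.9 CPM of Npy (82.6 to 88.7). In cerebellum, wild-type female 3 had 20.8 CPM of Npy (14.8 to 16.4) and wild-type male 4 had 382 CPM of Reln (290.6 to 296.4).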

How the results depend on the processing

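Of 786 marker results under alternatives other than leaving out a library, 785 kept their side of the threshold and 37 uncalled ones had another sign. The exception was striatal Pvalb in the male minus female effect, called in 1 fit of all libraries. Leaving out each library in turn gave 5220 results, of which 7 lost a call, all for Npy between striatum and cortex, and 333 uncalled ones had another sign. No called marker reversed, and the causes were not tested.

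Counts of all genes called moved more. By genotype they were 6 for cortex (2 in 1 fit of all libraries, 238 by DESeq2), 2 in striatum (4 in 1 fit, 7 by DESeq2) and 6 in cerebellum (13 in 1 fit, 16 by limma on deposited values, 244 by DESeq2). Male minus female effects had 0 genes called in each region, against 51 for cortex, 7 for striatum and 1 for cerebellum by DESeq2 and 6 for striatum in 1 fit, where 1 marker was called. By sex, 17 were called in cortex (80 by DESeq2), 20 in striatum (145 in 1 fit, 57 by limma, 59 by DESeq2) and 22 in cerebellum (44 by DESeq2). For effects between regions the counts were 0 for striatum minus cortex (7 by DESeq2), 3 for cerebellum minus cortex (12 by limma, 17 by DESeq2) and 2 for cerebellum minus striatum (7 by DESeq2).

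Without 1 library, calls by genotype ran from 1 to 26 for cortex, 2 to 3 for striatum and 1 to 49 for cerebellum. Calls by sex ran from 9 to 22, 10 to 25 and 15 to 25, male minus female effects from 0 to 2, 0 to 0 and 0 to 0, and effects between regions from 0 to 2, 3 to 5 and 2 to 3. Region calls ran from 11461 to 12278 for striatum minus cortex, 16137 to 16619 for cerebellum minus cortex and 16191 to 16523 for cerebellum minus striatum. Marker calls ran from 7 to 8 for striatum minus cortex, 10 to 10 for both cerebellar comparisons and 0 to 0 elsewhere.

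With a replicate block, genotype called 30 cortical genes and 1 striatal gene, and sex called 8 striatal genes, and no marker call changed. Cortical Calb2 was -0.75 (adjusted p = 0.0931) and the Pvalb male minus female effect 1.45 (adjusted p = 0.535). Same-numbered libraries of different genotype had deviations correlated by -0.08 to 0.41, and 12 of 30 correlated best with their own number, where 1 in 5 is chance. Across regions the correlations were -0.07 to 0.17 and 37 of 60 were best with their own number, where again 1 in 5 is chance. Both shares lay above chance. Not every pair exceeded 0.1, but that limit cannot exclude pairing. The labels do not state pairing, so the numbers were not taken to pair samples. Region tests treat libraries as independent, and their p-values make no allowance for shared animals. Of the 30 genes most like the markers, Spearman's rho shared 12 for cortex, 7 for striatum and 8 for cerebellum; without striatal PON2-deficient male 5, an alternative chosen after seeing the data, 14 of 30 were shared in striatum. Cerebellar counts of 0 to 6.91 for Htr3a limit what could be seen.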
